A study of Mus musculus with 6 samples.

Results

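The genes described here drive the cell cycle and DNA replication, and their transcripts were measured in NIH3T3 cells, an established line of mouse embryonic fibroblasts. The list held 46 gene names of known function, and each non-control probe carrying one of these names on the array was taken. Of the 46 genes, 45 were found, on 72 of the 61307 probes of the array, which carried 50090 gene names in all. The gene not found by its name was Cdk1. A pair of probes carried its older name, Cdc2a, and was not counted among the members. There were 20 members with more than 1 probe, and each gene is described on its brightest probe, the one with the highest mean log2 signal over the 6 arrays, unless stated otherwise.

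The question behind the comparison was how the transcripts differ between cells that overexpress SIRT7, a sirtuin deacylase of the nucleolus, and control cells. GFP denotes the control, NIH3T3 cells that carry green fluorescent protein alone, brought in with the retroviral vector pCX4Neo and selected with Geneticin. LT7 and ST7 both carry SIRT7 fused to GFP from the same vector. LT7 are the long, spindle-shaped cells of the SIRT7 cultures, and ST7 are the small cells that appeared as compact colonies at confluence and were picked out with cloning cylinders. All 3 lines were expanded from single cells and grown in DMEM with fetal bovine serum. The difference between clones and the effect of SIRT7 cannot be told apart in this design. Each group had 2 arrays, from RNA of different passages, so the p-values measure the spread between passages of 1 line.

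Cyclins switch on cyclin-dependent kinases (CDKs), and inhibitors such as p27 hold them back. In G1 the D and E cyclins with CDK4, CDK6 and CDK2 phosphorylate the retinoblastoma proteins, which frees the E2F factors to activate genes of DNA synthesis. Before S phase, CDC6 and CDT1 load the MCM helicase on origins. In mitosis, cyclin B with CDK1, the Aurora kinases and PLK1 drive chromosome segregation, and the spindle checkpoint holds back CDC20 until all chromosomes are attached. Fibroblasts in culture enter or leave this cycle with serum and with cell density.

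On the arrays labelled ST7 both probes of Sirt7 itself were lost. The brighter of them read 3125 and 2480.2 (GFP), 3633 and 2782 (LT7) and 2.85 and 3.28 (ST7), and neither ST7 array was well above background for it. Where on the transcript the Sirt7 probes lie was not checked, so they settle neither the overexpression nor its absence, and LT7 and ST7 stand here for the arrays so labelled. The 10 fibroblast markers on the array, among them Col1a1, Thy1, Pdgfra and Twist1, were all well above background on the GFP and LT7 arrays. In ST7, 4 of them were, and 6 of them, Col3a1, Fn1, Thy1, Pdgfra, Pdgfrb and Twist1, were above background on neither array. The summed signal of the 10 markers was 317950.4 to 323408 in GFP, 322094 to 336416 in LT7 and 15061 to 16601 in ST7. Most of the ST7 sum was Vim, at 14612 and 16192. On the ST7 arrays Col1a1 read 295 and 255, Col1a2 98.1 and 86.6, and S100a4 35.7 and 44.5. Of 9 epithelial markers 3 were well above background on both arrays in GFP, 2 in LT7 and 3 in ST7, with a summed signal of 139 to 229, 166 to 216 and 1934 to 2049.96 in the same order. Most of the epithelial sum in ST7 was Krt18, a keratin of simple epithelia, which read 6.64 and 4.64 (GFP) and 1881 and 1755 (ST7). Epcam read 5.38 and 3.03 (GFP) and 86.7 and 94.0 (ST7). Before scaling, other keratins went the other way. Krt8 read 123 and 62.2 (GFP) and 15.3 and 5.82 (ST7), and Krt7 33.1 and 21.5 (GFP) and 9.83 and 9.27 (ST7). Krt8 was well above background on 1 ST7 array and Krt7 on neither. Scaled to the 75th percentile of each array, their log2 differences between ST7 and GFP were 1.18 and 2.92. Cdh1, the gene of E-cadherin, was not above background on any array. No immune marker (0 of 5) and no endothelial marker (0 of 4) was above background in ST7, and Sox2 was the only pluripotency marker that was (1 of 4). The 75th percentile of the signal, used for scaling, was 317 to 384 in GFP and LT7 and 16.3 to 17.1 in ST7. What these differences contribute to the results in ST7 was not tested. Different probes of the same gene also disagreed on these arrays, as shown further on, whereas the mean log2 signal of the spike-in RNAs was 8.57 and 8.76 in GFP and 8.47 on both ST7 arrays. Whether the RNA on the ST7 arrays came from NIH3T3 cells, or from mouse cells at all, was not tested, and every ST7 value below is subject to that limit. In bulk RNA, fewer cells of a type and less RNA per cell cannot be told apart.

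In LT7 no member passed the test. Of the 45 members 0 were called against GFP by limma at an adjusted p under 0.05, where 0.18% of the genes on the array were called. The unadjusted limma p was under 0.05 for 1 member, Cdc25a, beside 13633 of the 49865 genes. Among genes well above background on all 4 GFP and LT7 arrays the shares were 2.33% of members and 7.43% of all. By the fold rule of the study's methods, read here on the log2 scale, which the methods do not name, 0 of 45 members were called. The rule asks for a log2 ratio to the GFP mean of at least 0.8 in each replicate with a mean over 1, or the same below 0. Of all genes, 6.19% met it. The log2 differences ran from -0.83 for Cdc25a to 0.66 for Rb1, with a median of -0.07 over the members and 0.17 over all genes. There were 18 members above 0 and 27 below. Scaled on the spike-in RNAs instead, all 45 were below 0, with a median of -2.28 and 0 called. The mean log2 signal of these RNAs was 12.9 on LT7 replicate 1 and 8.47 to 8.76 on the other 5 arrays. Every positive LT7 difference given below is therefore positive after the 75th percentile shift and negative on the spike-in scale. Before scaling, the signals of the LT7 and GFP arrays did not overlap for 21 of the 45 members (46.7%), beside 53.9% of all genes.

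The width of the intervals sets what can be said of LT7. The median half-width of the 95% interval was 0.66 on the log2 scale, and for 29 of the 45 members the whole interval lay within 1 of 0, that is, within a 2-fold difference. For the other members a 2-fold difference lay inside the interval. There were 43 members well above background on all 4 GFP and LT7 arrays. Their median absolute log2 difference was 0.14, beside 0.25 over the 20965 such genes of the whole array, and 0 of 43 differed by more than 1, beside 4.89% of those genes. The plot of LT7 differences shows each member with its interval.

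**Figure D1:**
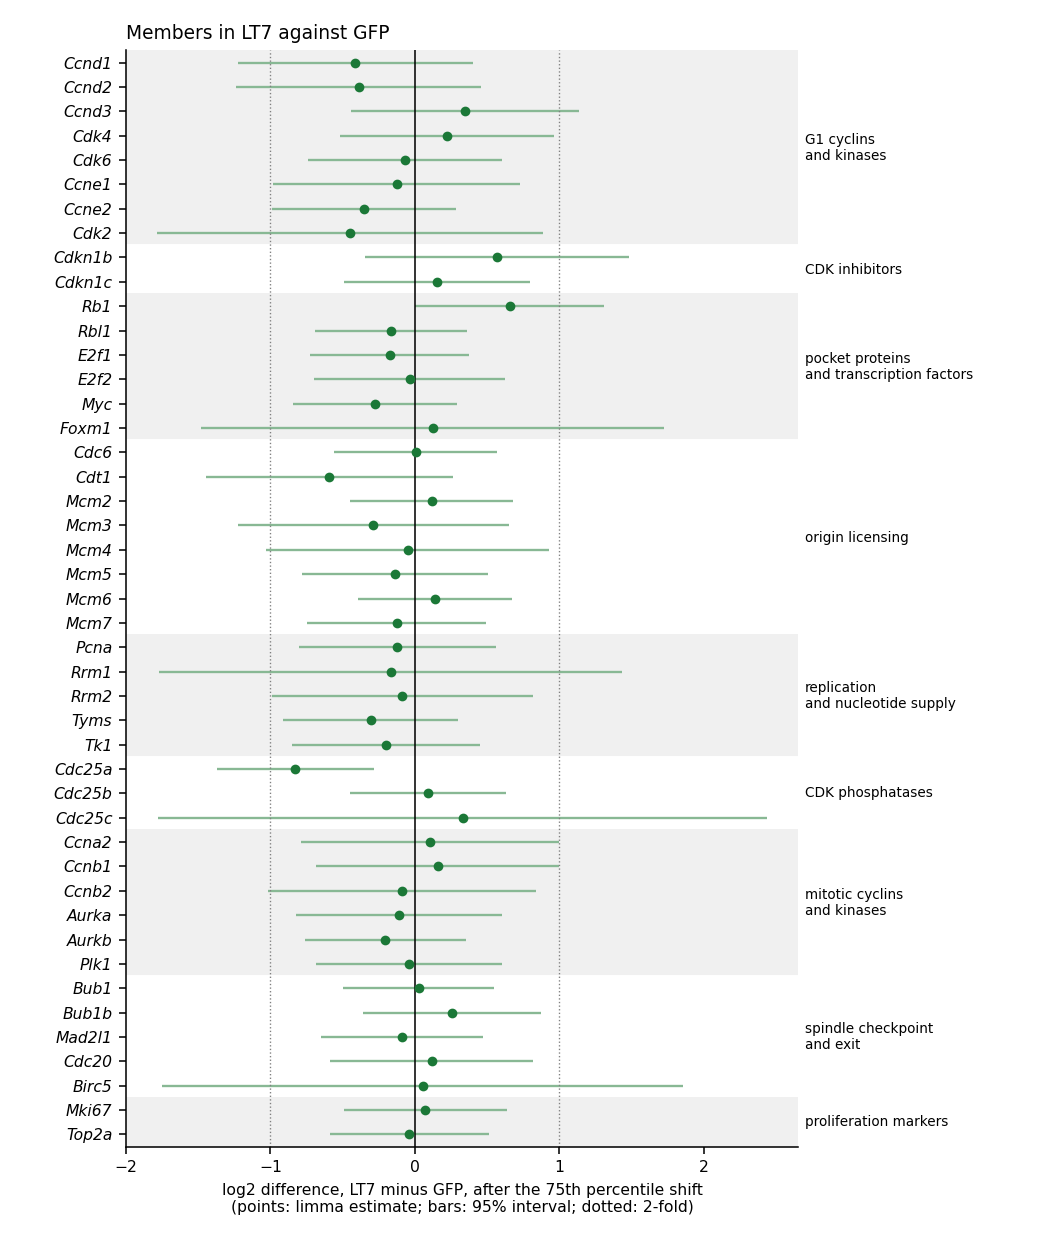
Log2 difference between LT7 and GFP after the 75th percentile shift (horizontal axis) for the 45 members, grouped by role. Points are limma estimates from 2 arrays per group, bars are 95% intervals, and dotted lines mark a 2-fold difference. All points lie between -0.83 and 0.66, and the Cdc25a bar is the one that ends below 0.

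By limma after the 75th percentile shift, the arrays labelled ST7 differed from GFP for most members and for most genes of the array. Without scaling, limma called most members but not most genes, as counted below. Of the 45 members 40 were called by limma, against a background of 91.3% of all genes, so the number called is no result about the members. After the 75th percentile shift 12 were higher and 28 lower (background 73.1% and 18.2%). Called without scaling were 1 higher and 39 lower, beside 2251 and 19356 of the 49865 genes. The background shares of calls in ST7, here and below, are not those of like genes. On neither GFP array were 42.9% of all genes well above background, beside 4.44% of the members. The counts by direction therefore do not set the members against genes of like signal. The fold rule called 39 of 45 members (background 91.1%), 11 higher and 28 lower (background 73.5% and 17.6%). The signals before scaling did not overlap between ST7 and GFP for 41 members, beside 73.3% of all genes. The shift itself raised the median log2 difference of all genes from -0.53 to 3.86, and the median of the members stood at -8.05 without scaling and -3.65 after the shift. Under the 6 ways of scaling or background correction that were run, 31 members were lower each time, 4 were higher each time and 10 changed sign. The same count was not made over all genes. Of the 4, Cdk2 and Cdkn1c were well above background on no GFP array and on 1 ST7 array. The others were Cdkn1b, at 0.00 without scaling, and Bub1, whose second probe was lower in ST7 after the shift (-3.83).

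The flag for a signal well above background is set on each array by the scanner software before any scaling. A gene is called detected on an array with this flag. Both GFP arrays detected 43 members. Of these, 16 (37.2%) had the flag in both ST7 replicates and 26 (60.5%) in none. The same shares over the 25168 genes detected on both GFP arrays were 43.7% and 49.1%. The 26 members above background on neither ST7 array read between 2.77 and 16.5 there. For these, the fold given below is a lower bound. It sets the GFP mean against an ST7 mean in which each array has the higher of its own value and the lowest signal among its probes well above background, all after the 75th percentile shift. A bound could be given for 25 of the 26, from 2.19-fold to 124-fold. The 16 members above background on all 6 arrays were Ccnd2, Ccne1, Ccne2, Cdk6, Cdkn1b, E2f1, Rbl1, Mcm6, Mcm7, Pcna, Tyms, Plk1, Cdc20, Bub1, Bub1b and Mad2l1. Without scaling, 2 of these 16 were higher in ST7 and 14 lower, whereas after the shift 11 were higher and 10 of them were called. No such count is given for the 9450 genes well above background on all 6 arrays, so these counts cannot be read as particular to the members.

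**Figure D2:**
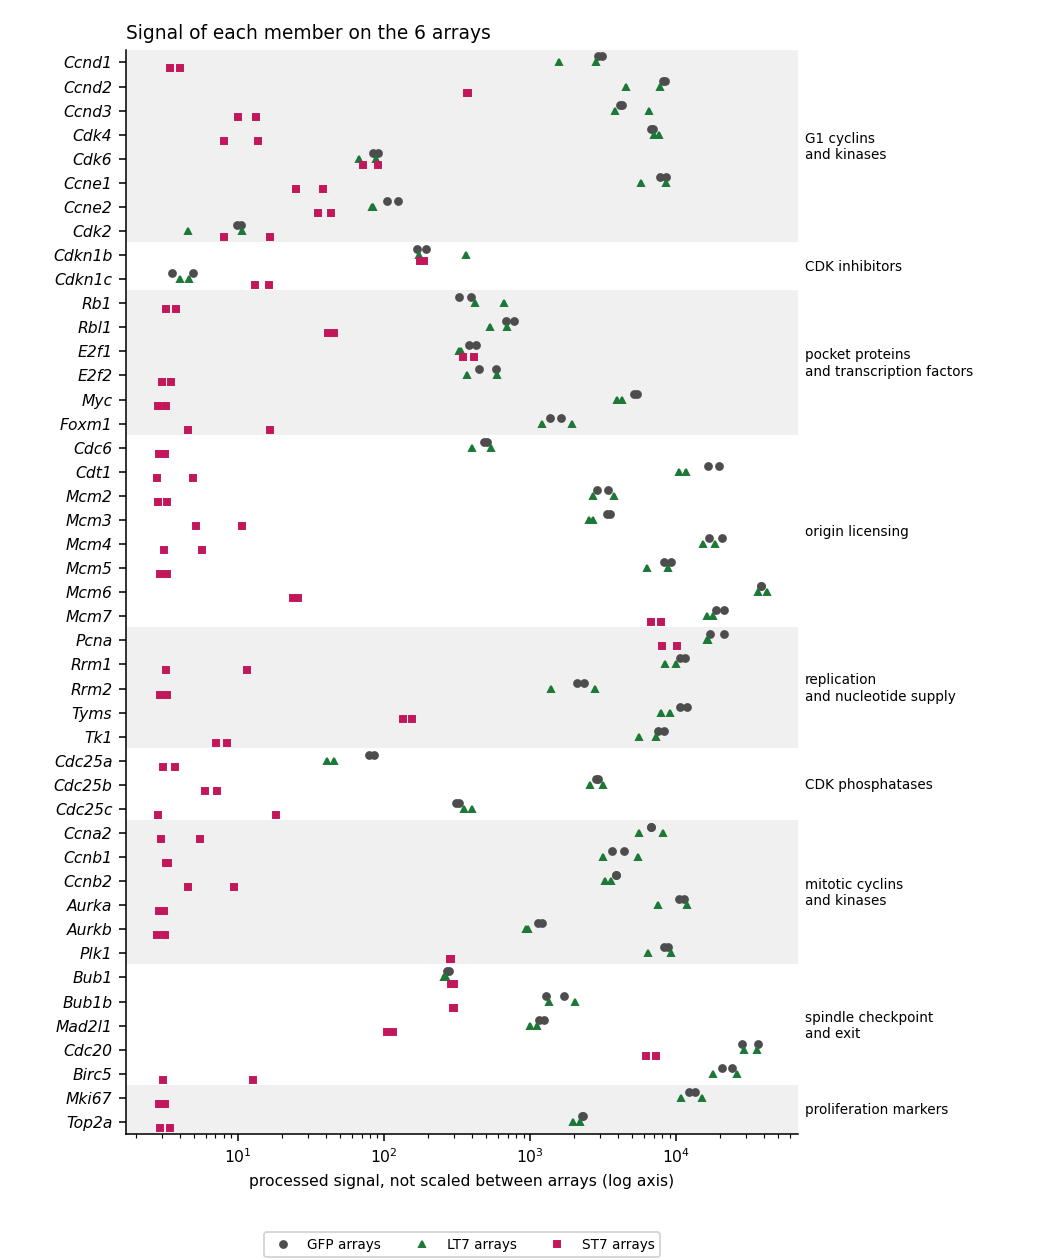
Processed signal of the 45 members before any scaling (horizontal log axis) on the 2 GFP, 2 LT7 and 2 ST7 arrays, 1 point per array, grouped by role. GFP and LT7 points lie close together, while 26 members have both ST7 points at signals that are not well above background.

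The D and E cyclins and their kinases were 8 of the members, and in LT7 the log2 differences of the 7 detected there lay between -0.41 and 0.35. Ccnd1, the cyclin that growth factors induce first, read 2902 and 3094 (GFP), 2828 and 1562 (LT7) and 3.40 and 3.99 (ST7). The lower LT7 value came from replicate 2, and the difference was -0.41 (95% interval -1.23 to 0.40). Ccnd2, a second D cyclin, read 8359 and 8144 (GFP), 4513 and 7676 (LT7) and 373 and 370.2 (ST7), a difference of -0.39 (95% interval -1.24 to 0.46) in LT7. Here LT7 replicate 1 was the low array, and without it the difference was 0.05. Ccnd3, the third D cyclin, read 4121 and 4256 (GFP), 6498 and 3819 (LT7) and 9.92 and 13.2 (ST7), and differed by 0.35 (95% interval -0.44 to 1.14). Ccnd1 and Ccnd3 thus lay on opposite sides of 0 in LT7, neither past the test. Cdk4, the kinase partner of the D cyclins, read 6868 and 6657 (GFP), 7652 and 7072 (LT7) and 8.01 and 13.7 (ST7), with a difference of 0.22 (95% interval -0.52 to 0.96) in LT7.

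In ST7 these genes parted. Ccnd1, Ccnd3 and Cdk4 were not above background on either ST7 array, and after the shift they were at least 18.3-fold, 16.7-fold and 26.6-fold lower than in GFP. Ccnd2 kept 4.51% of its GFP signal, which was percentile 93.6 of all probe signals on the ST7 arrays, where the GFP signal was percentile 94.4 on the GFP arrays. Cdk6, the other D cyclin kinase, read 83.7 and 90.4 (GFP), 88.6 and 67.8 (LT7) and 90.5 and 71.7 (ST7), so the groups overlapped, and the log2 difference in ST7 was -0.11 without scaling and 4.29 (SE 0.27, adjusted p = 3.6e-05) after the shift. Ccne1, the cyclin of the G1 to S transition, read 7779 and 8469 (GFP), 8447 and 5719.6 (LT7) and 38.0 and 24.8 (ST7), a log2 difference of -3.65 (SE 0.34, adjusted p = 0.00018). Ccne2, its close relative, read 104 and 124 (GFP), 84.4 and 82.3 (LT7) and 35.1 and 43.2 (ST7). Its ST7 signals were the lowest of the 6, yet the difference after the shift was 2.85 (SE 0.25, adjusted p = 0.00015) and -1.55 without scaling. Cdk2, the kinase of the E cyclins, was not above background on any GFP or LT7 array, and 1 ST7 array was above it, at 16.5, beside 8.01 on the other.

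The CDK inhibitors were 2 of the members. Cdkn1b encodes p27, which blocks cyclin E with CDK2. Its signal was 194 and 169 (GFP), 366 and 173 (LT7) and 187 and 176 (ST7). LT7 replicate 1 stood apart from the other 5 arrays, and the LT7 difference of 0.57 (95% interval -0.34 to 1.48) did not pass. By the fold rule Cdkn1b would be called higher if LT7 replicate 2 were left out. A second Cdkn1b probe went the other way on the same array, with 128 and 105.5 (GFP) and 35.6 and 134 (LT7). In ST7 the brightest probe was at the GFP level before scaling (log2 difference 0.00), and at 4.40 (SE 0.36, adjusted p = 0.00011) after the shift. Cdkn1c, the gene of p57, was not above background on any GFP or LT7 array, and 1 of the 2 ST7 arrays was above it, at 16.2, beside 13.0 on the other.

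Pocket proteins and transcription factors were 6 of the members. Rb1, the retinoblastoma gene that restrains E2F, had the highest difference in LT7. Its signal was 394 and 327 (GFP), 665 and 420.5 (LT7) and 3.19 and 3.75 (ST7), so both LT7 arrays lay above both GFP arrays. The difference was 0.66 (95% interval -0.00 to 1.31, adjusted p = 0.184). In ST7 it was not above background, at least 2.19-fold lower after the shift. Rbl1, the gene of the related p107, read 779.6 and 688 (GFP), 698 and 533 (LT7) and 41.2 and 45.3 (ST7), with a difference of -0.16 (95% interval -0.69 to 0.36) in LT7. E2f1, an activator of S phase genes, read 423 and 379 (GFP), 325 and 338 (LT7) and 409 and 346 (ST7), and its ST7 signals overlapped those of GFP before scaling. E2f2, a second activator, was not above background in ST7, and read 586 and 449 (GFP), 588 and 371 (LT7) and 3.03 and 3.49 (ST7). Myc, which couples growth signals to the cycle, read 5114 and 5406 (GFP), 3901 and 4214 (LT7) and 2.85 and 3.20 (ST7). Both LT7 values of Myc were below both GFP values, with a log2 difference of -0.28 (95% interval -0.84 to 0.29) after the shift, and in ST7 this probe was at least 32.1-fold lower. Of the other Myc probes, the second was not above background in ST7 either, and the third read 261 and 248 (GFP), 169 and 243 (LT7) and 4.93 and 17.5 (ST7), above background on 1 of the ST7 arrays. Foxm1, the activator of mitotic genes, read 1372 and 1627 (GFP), 1924 and 1203 (LT7) and 4.53 and 16.5 (ST7), and none of its ST7 values was well above background.

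Origin licensing was represented by 8 genes. Cdt1, which loads the MCM helicase, read 16340.3 and 19482 (GFP), 11718 and 10431 (LT7) and 2.77 and 4.92 (ST7). Both LT7 arrays were below both GFP arrays, and the difference of -0.59 (95% interval -1.45 to 0.27, adjusted p = 0.353) was the second lowest of the members but did not pass. In ST7 Cdt1 was not above background, at least 109-fold lower after the shift. Cdc6, its partner in loading, read 506 and 485 (GFP), 543 and 398 (LT7) and 2.87 and 3.15 (ST7). Its LT7 difference was 0.01 (95% interval -0.56 to 0.57), and it was lost in ST7.

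The subunits of the helicase had like values in LT7 and unlike ones in ST7. In LT7 the 6 subunits Mcm2 to Mcm7 lay between -0.29 for Mcm3 and 0.14 for Mcm6. Mcm3 read 3334 and 3506 (GFP), 2689.8 and 2539 (LT7) and 5.16 and 10.7 (ST7), and Mcm6 read 38017 and 37942 (GFP), 42023 and 36335 (LT7) and 25.6 and 23.8 (ST7). In ST7, Mcm2, Mcm3, Mcm4 and Mcm5 were not above background. Mcm4 read 16679.7 and 20474 (GFP), 18282 and 15231 (LT7) and 5.65 and 3.12 (ST7), at least 113-fold lower after the shift, and Mcm5 read 8276 and 9233 (GFP), 8783 and 6271 (LT7) and 2.93 and 3.26 (ST7), at least 53.4-fold lower. Mcm6 stayed above background in ST7 at 0.0650% of its GFP signal, whereas Mcm7, which read 18795 and 21193 (GFP), 17927 and 16257 (LT7) and 7841 and 6703 (ST7), kept 36.4%. The signal kept in ST7 thus differed widely between the probes for subunits of 1 complex. Each subunit has 1 probe, and probes of a single gene also differed widely on these arrays. A difference between subunits and one between probes cannot be told apart here. Mcm7 ranked at percentile 96.7 in GFP and 98.3 in ST7, and its difference was -1.46 without scaling and 2.94 (SE 0.25, adjusted p = 0.00012) after the shift.

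The genes of replication and nucleotide supply, 5 in number, were all lower in LT7 than in GFP by estimate, between -0.31 and -0.09, and none was called. Tyms, the thymidylate synthase, read 10629 and 11788 (GFP), 9076 and 7877 (LT7) and 155 and 135 (ST7), a difference of -0.31 (95% interval -0.91 to 0.30) in LT7. Pcna, the sliding clamp of DNA polymerase, read 17067 and 21193 (GFP), 16326 and 16346 (LT7) and 7999 and 10051 (ST7). In LT7 it differed by -0.12 (95% interval -0.80 to 0.56). In ST7 Pcna kept 47.2% of the GFP signal, with a rank at percentile 98.4 against 96.6, and its difference was -1.08 without scaling and 3.31 (SE 0.27, adjusted p = 0.0001) after the shift. Ribonucleotide reductase makes deoxyribonucleotides, and both of its genes among the members were lost in ST7. Its large subunit, Rrm1, read 10539 and 11421 (GFP), 9919 and 8394 (LT7) and 11.5 and 3.22 (ST7), and the S phase subunit, Rrm2, read 2104 and 2351 (GFP), 2755 and 1388 (LT7) and 2.90 and 3.27 (ST7). Tk1, the thymidine kinase of S phase, read 7449 and 8171 (GFP), 7261 and 5537 (LT7) and 8.38 and 7.09 (ST7) and was not above background in ST7.

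The CDC25 phosphatases remove the inhibitory phosphates from CDKs, and none of their 3 genes passed the test in LT7. Cdc25a, which acts at the start of S phase, had the lowest log2 difference of the members. Its signal was 85.1 and 78.7 (GFP), 41.0 and 45.3 (LT7) and 3.07 and 3.68 (ST7), so that both LT7 arrays lay below both GFP arrays, with a ratio of the group means of 0.527. The log2 difference was -0.83 (95% interval -1.37 to -0.29, adjusted p = 0.102), with an unadjusted p of 0.0108. Cdc25b, the phosphatase of mitotic entry, read 2918 and 2806 (GFP), 3158 and 2570.4 (LT7) and 5.93 and 7.13 (ST7), a difference of 0.09 (95% interval -0.45 to 0.63). Cdc25c, which acts on cyclin B with CDK1, read 325 and 312 (GFP), 399.9 and 350.4 (LT7) and 2.83 and 18.1 (ST7), and both LT7 values lay above both GFP values. Its difference had a wide interval, 0.33 (95% interval -1.78 to 2.44), and the fit takes the spread of a probe over all 3 groups, the unlike ST7 pair included. On the ST7 arrays Cdc25a and Cdc25b were not above background, and Cdc25c was on 1 of 2.

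Mitotic cyclins and kinases lay within -0.20 to 0.16 of GFP in LT7. Ccnb1, the cyclin of CDK1, had the highest of these differences, 0.16 (95% interval -0.69 to 1.00). Its signal was 3636 and 4366 (GFP), 5506 and 3129.9 (LT7) and 3.34 and 3.19 (ST7), and the sign turned when LT7 replicate 1 or GFP replicate 1 was left out (-0.20 and -0.10). The brightest Ccnb1 probe and its duplicate, which has the same sequence, are annotated to predicted transcripts, while the other 3 probes are annotated to the curated mRNA and gave -0.08, 0.31 and 0.15. Which copy of the gene the first pair reads is therefore uncertain.

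In ST7, 5 of these 6 genes were not above background. Aurka, the centrosome kinase, read 10374 and 11329.8 (GFP), 11829.7 and 7437 (LT7) and 2.87 and 3.11 (ST7), at least 66.2-fold lower after the shift. Aurkb, the kinase of the chromosomal passenger complex, read 1126 and 1209 (GFP), 961 and 932 (LT7) and 2.80 and 3.19 (ST7), at least 7.13-fold lower. Ccna2, the cyclin of S and G2 phase, Ccnb1 and Ccnb2, the second B cyclin, were at least 40.8-fold, 24.3-fold and 18.3-fold lower. Plk1, the kinase of mitotic entry and spindle assembly, was the exception. It read 8195 and 8758 (GFP), 9242 and 6396 (LT7) and 286 and 280.2 (ST7), which is 3.34% of GFP, and after the shift its difference of -0.50 (SE 0.25, adjusted p = 0.109) did not pass. The brighter probe under the older name of Cdk1 read 4334 and 4958 (GFP), 3678 and 3435 (LT7) and 2.86 and 3.20 (ST7), a log2 difference of -0.28 in LT7, and was not above background in ST7.

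Of the 5 spindle checkpoint and mitotic exit genes, 4 were detected in ST7 on their brightest probes, beside 43.7% of the genes detected in GFP. With the probe brightest on the GFP arrays, Bub1 was not above background in ST7. Bub1, the checkpoint kinase, read 269.6 and 277 (GFP), 264 and 256 (LT7) and 288 and 299.6 (ST7). All 6 arrays lay between 256 and 299.6, and without scaling the ST7 difference was 0.10. After the shift it was 4.50 (SE 0.21, adjusted p = 1.7e-05), the highest among the members detected in GFP. Bub1b, the gene of BUBR1, read 1689 and 1284 (GFP), 2013 and 1346 (LT7) and 296 and 302 (ST7), with 0.26 (95% interval -0.36 to 0.87) in LT7. Mad2l1, the gene of MAD2, read 1147 and 1251 (GFP), 1119 and 991 (LT7) and 104 and 114 (ST7). Cdc20, the activator of the anaphase-promoting complex, read 28036 and 35940.4 (GFP), 35774 and 28851 (LT7) and 6234 and 7303 (ST7). These last 3 kept 20.1%, 9.11% and 21.2% of the GFP signal in ST7. Their log2 differences were -2.30, -3.46 and -2.23 without scaling, and 2.10, 0.94 and 2.16 after the shift, so their direction depended on the scaling. Birc5, the gene of survivin, was not above background in ST7. It read 20617 and 24019 (GFP), 25939 and 17956 (LT7) and 12.7 and 3.09 (ST7), at least 124-fold lower.

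The common proliferation markers gave no difference in LT7 past the test, and their brightest probes were not above background in ST7. Mki67, the gene of the Ki-67 antigen, read 13450.4 and 12298 (GFP), 14869.8 and 10727 (LT7) and 2.89 and 3.16 (ST7), a difference of 0.07 (95% interval -0.49 to 0.63) in LT7 and at least 78.6-fold lower in ST7. Top2a, which untangles chromosomes before mitosis, read 2307 and 2252 (GFP), 1968 and 2183 (LT7) and 2.92 and 3.41 (ST7), a difference of -0.04 (95% interval -0.59 to 0.51) in LT7 and at least 13.9-fold lower in ST7. Its second probe was detected on both ST7 arrays and stood at 0.75 against GFP after the shift, so the loss is that of 1 of its 2 probes.

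**Figure D3:**
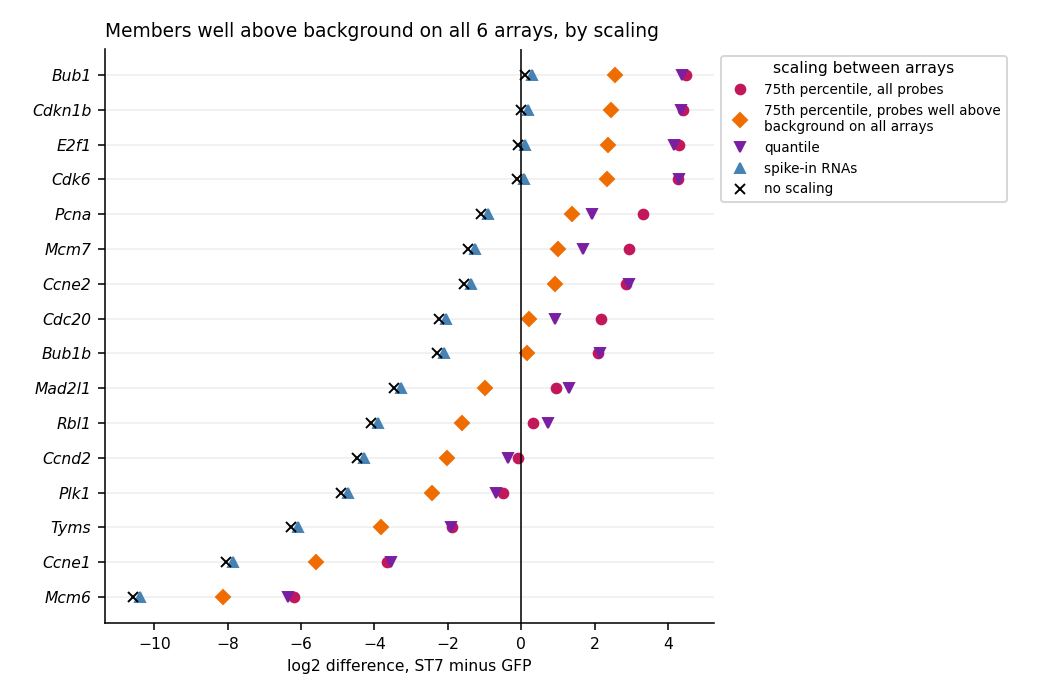
Log2 difference between ST7 and GFP (horizontal axis) of the 16 members well above background on all 6 arrays, under 5 ways of scaling the arrays. Each row is a gene and each symbol a scaling. Bub1 and Cdkn1b stay at or above 0, Ccnd2, Plk1, Tyms, Ccne1 and Mcm6 stay below 0, and the other genes cross it.

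Different probes of the same gene disagreed in ST7, and each value above is that of 1 probe. E2f1 has 2 probes. Probe 1 is the one described above. Probe 2 read 583 and 566 (GFP), 548 and 492 (LT7) and 2.81 and 3.21 (ST7). In GFP and LT7 both probes of E2f1 were above background, and their LT7 differences, -0.17 and -0.05, lay close together, but in ST7 only probe 1 was detected. Bub1 showed the same split. Its probe 1 is given above, and probe 2 read 867 and 971 (GFP), 1296 and 737 (LT7) and 2.92 and 3.22 (ST7). Ccnd2 has 3 probes, of which the first pair was detected in ST7, the second at 199 and 186 (ST7), and the third was not, with 5605 and 4957 (GFP), 2619.7 and 5811 (LT7) and 4.78 and 3.09 (ST7). For Top2a it was the second probe that was detected in ST7, with 339.7 and 249.9 (GFP), 89.5 and 259 (LT7) and 25.1 and 21.5 (ST7). The probe sequences of these genes are shown because the results in ST7 turn on which of them is read. They are 60 bases long, from the array files, written 5′ to 3′ with no part set in capitals, and numbered by their mean log2 signal over the 6 arrays.
Ccnd2 probe 1: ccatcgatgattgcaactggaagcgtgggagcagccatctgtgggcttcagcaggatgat
Ccnd2 probe 2: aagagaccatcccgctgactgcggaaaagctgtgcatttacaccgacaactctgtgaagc
Ccnd2 probe 3, first 30 bases: gtctctccgtcgcatactcttgctgactaa
Top2a probe 1: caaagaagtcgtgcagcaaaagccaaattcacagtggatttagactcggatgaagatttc
Top2a probe 2: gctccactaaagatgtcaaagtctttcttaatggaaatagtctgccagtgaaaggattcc
E2f1 probe 1, first 30 bases: ctttaatggagcgtttatttatttatcgag
E2f1 probe 2, first 30 bases: cgggaatgaaggtgaacacatctgtatgtg
Bub1 probe 1, first 30 bases: ttactttccacttccatgtctcatctgtca
Bub1 probe 2, first 30 bases: aacaagattaagaccttgcgtaataggcta
The third Ccnd2 probe has a stop codon in all 3 of its forward reading frames, whereas the other Ccnd2 probes and both Top2a probes keep at least 1 frame open. Their positions in the genome were not used. The median GC content was 41.7% both for the 20 member probes that both ST7 arrays detected and for the 43 that neither did, among the 66 well above background on both GFP arrays.

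Counted over all members with at least 2 probes above background on the 4 GFP and LT7 arrays, 6 of 17 genes (35.3%) had 1 probe detected on both ST7 arrays and another on neither. These were Bub1, Ccnd2, Ccne2, E2f1, Rbl1 and Top2a. Among all 4700 such genes of the array 1656 (35.2%) were split in this way. The log2 differences of probes of 1 gene spanned a median of 0.21 in LT7 and 2.85 in ST7 over the 17 members, beside 0.22 and 2.78 over the 4700 genes. After the shift the probes of Bub1, Ccne1, E2f1, Rbl1 and Top2a differed in sign in ST7, with -3.65 and 2.83 for Ccne1, 0.32 and -3.61 for Rbl1, and -5.10 and 0.75 for Top2a. Probes of Cdc25b and Rb1 differed in sign too, at -4.38 to 1.38 and -2.30 to 4.51, in each case with 1 probe that was not above background on all GFP and LT7 arrays. Without scaling, the higher probes of Ccne1, E2f1 (-0.09), Rbl1 (-4.08) and Top2a were below 0 as well. Of Bub1, Ccne1, E2f1, Rbl1 and Top2a only Bub1 (0.10) still differed in sign. In LT7, after the shift, the probes of Ccnb1, Ccnb2, Cdc6, Cdkn1b, Mki67 and Rbl1 differed in sign among those above background, none of them called. The estimates spanned -0.09 to 0.11 for Ccnb2, -0.38 to 0.01 for Cdc6, -0.14 to 0.07 for Mki67 and -0.16 to 0.23 for Rbl1. Those of Cdk2, with no probe above background in GFP or LT7, spanned -0.45 to 1.12. Taking for each gene the probe brightest on the GFP arrays, an alternative chosen after seeing the data, moved Bub1, E2f1 and Rbl1 to probes not above background in ST7 and left 13 members detected on both ST7 arrays in place of 16.

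**Figure D4:**
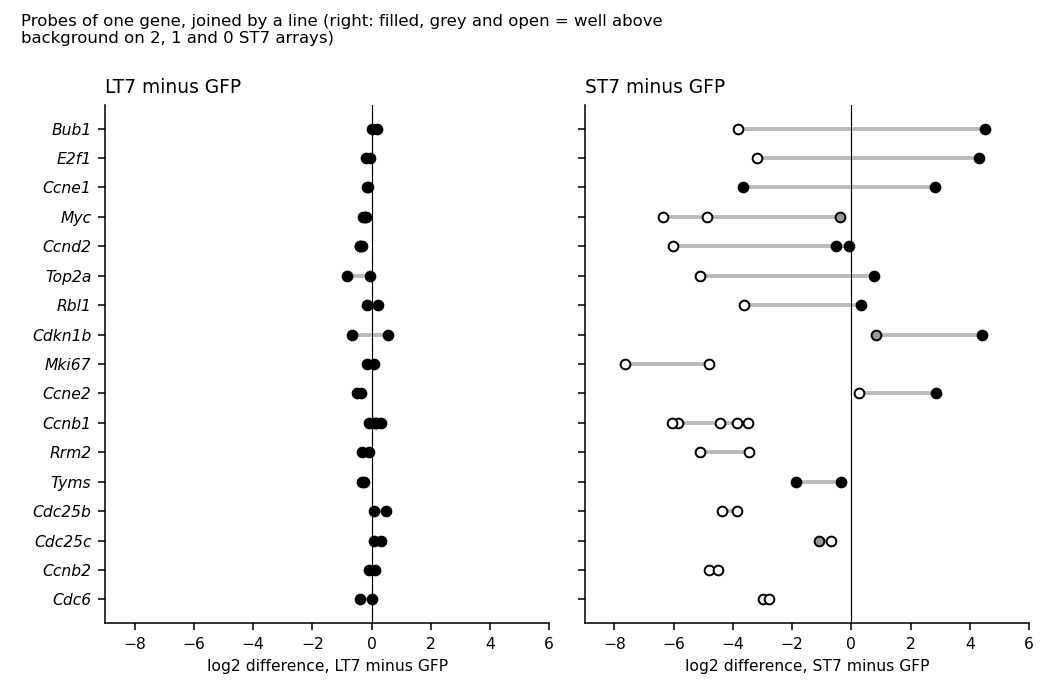
Log2 difference from GFP after the 75th percentile shift (horizontal axes) for LT7 (left) and ST7 (right), 1 point per probe, for the 17 members with at least 2 probes well above background on the GFP and LT7 arrays. Grey lines join probes of a gene. On the right, filled, grey and open points were well above background on 2, 1 and 0 ST7 arrays, so an open point is not a measured level. The probes lie close together on the left and up to 8.33 apart on the right, for Bub1.

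ST7 and LT7 were also compared directly. Of the 45 members 41 were called, against 91.3% of all genes, with 13 higher in ST7 and 28 lower (background 73.2% and 18.1%). Called without scaling were 1 higher and 39 lower, beside 2743 and 25525 of the 49865 genes. Both comparisons with GFP and this one share arrays, so they do not add to each other.

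Other genes of the cell cycle were taken from a list of 85, of which 78 were named on the array. In LT7, 0 of 78 passed the test (background 0.18%), and the median log2 difference was 0.02. The unadjusted limma p was under 0.05 for 3 of them, beside 13633 of the 49865 genes. Among genes well above background on all 4 GFP and LT7 arrays it was so for 1 of 76, beside 7.43% of all. Those named at the lower end were E2f6, a repressor of the E2F family, with 29.6 and 30.7 (GFP), 4.35 and 6.65 (LT7) and 8.09 and 5.02 (ST7), then E2f4, the E2F factor of resting cells, with 232 and 218 (GFP) and 107 and 169 (LT7), and Gins2, a subunit of the replicative helicase, with 1569.5 and 1413 (GFP) and 862 and 943 (LT7). Neither LT7 array was above background for E2f6, so its fold is a bound, at least 2.13-fold lower (limma adjusted p = 0.102), and it has no rank against the other genes. E2f4 and Gins2 differed by -0.65 and -0.63. The 3 highest were Uhrf1, which maintains DNA methylation at replication, at 0.56, Pole2, a subunit of DNA polymerase epsilon, at 0.55, and Cenpf, a kinetochore protein, at 0.37.

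In ST7, 74 of these 78 genes were called (background 91.3%), 15 higher and 59 lower after the shift (background 73.1% and 18.2%). Called without scaling were 1 higher and 73 lower, beside 2251 and 19356 of the 49865 genes. Both GFP arrays detected all 78. There were 20 of 78 (25.6%) well above background on both ST7 arrays, beside 43.7% of all genes detected on both GFP arrays. Among the genes not above background in ST7, those the naming rule took were Incenp, of the chromosomal passenger complex, with 26819 and 29411 (GFP) and 2.81 and 3.09 (ST7), Rfc2, of the clamp loader, with 19076 and 19074 (GFP) and 2.93 and 3.25 (ST7), and Cenpe, a kinetochore motor, with 17223 and 18188 (GFP) and 3.23 and 3.20 (ST7). The highest was Fen1, the flap endonuclease of lagging strand synthesis, with 3173 and 2763 (GFP) and 6909 and 7909.98 (ST7), so its ST7 arrays lay above GFP before any scaling. E2f5, a partner of the pocket proteins, read 202 and 203 (GFP) and 279 and 395 (ST7), and Pold1, the catalytic subunit of DNA polymerase delta, read 5775 and 5707 (GFP) and 7954 and 7091 (ST7), both also above GFP without scaling. After the shift the log2 differences of Fen1, E2f5 and Pold1 were 5.72, 5.11 and 4.79.

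Promoter sequences of RefSeq (GRCm38.p6), from 250 bases before to 50 after the start, were given for 34 of the 45 members and 27025 genes in all, and were searched on both strands. An E2F site, written as TTTGGCGC, TTTGCCGC, TTTCGCGC or TTTCCCGC, was found for 10 of 34 members (29.4%), beside 2.60% of all genes: Cdk2, Mcm3, Mcm5, Mcm6, Mcm7, Cdc6, Cdt1, Cdc25a, E2f2 and Rbl1. The element of late cell cycle genes, CHR (TTTGAA or TTCGAA), was found for 12 (35.3%), beside 21.7%, and a CCAAT box (CCAAT) for 23 (67.6%), beside 41.1%. A match is only a description of the sequence. Members with an E2F match included both the lowest of LT7 (Cdc25a and Cdt1) and genes near 0 (Cdc6 at 0.01 and E2f2 at -0.04).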

How the data were processed

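Total RNA of the 6 cultures (GFP, LT7 and ST7, 2 arrays each, on 1 slide) was hybridised in 1 colour to Agilent mouse arrays, which the authors read with Agilent Feature Extraction 10.5.1.1. The deposited scanner files hold the processed signal intensity of each spot, background-subtracted by the authors' software and not scaled between arrays. The authors' value table holds log2 values after a percentile shift in GeneSpring, which differed from the recomputed values by a constant of each array between -0.025 and 0.001 and served as an alternative.

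The members and the other gene lists were chosen with earlier results of these data known. Control spots and outlier spots were left out, spots of a probe were averaged, and a probe whose spots on an array were all left out was missing there in the fit, which concerned no member's brightest probe. The log2 signal minus the 75th percentile of its array went into 1 limma fit (version 3.58.1, R 4.3.3) of the 3 groups over 61307 probes, without covariates, and p-values were adjusted by Benjamini-Hochberg over all probes, with a threshold of 0.05. Shares over all genes are over the 49865 names with a probe measured on all 6 arrays. The fit had 3 residual and 2.20 prior degrees of freedom. The test was tested on simulated data with known changes, all larger than the difference of any member in LT7. It does not show whether differences of the size seen in LT7 would be found. Tables and figures were made with Python 3.11.15. Named were, for each comparison with GFP, the 8 members with the lowest and the 8 with the highest log2 difference among those that both arrays of the group with the higher signal detected, any member called in LT7, the members above background on all arrays, those whose probes differ in sign, and by the same filter the 3 lowest and highest of the other list. Values of the remaining members are given for their role. The fold rule follows the study's methods, with its fold change taken as a log2 ratio.

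The arrays were read in 2 scans, and the second held LT7 replicate 1 alone, so scan and array cannot be told apart. With 2 arrays in each group, precision is limited by their number. The labels name no culture or batch shared by arrays of 1 replicate number. The deviations of same-numbered arrays from their group means correlated at 0.0777 for GFP and LT7, 0.0354 for GFP and ST7 and -0.0234 for LT7 and ST7 over all probes. Over the 11087 probes that all 6 arrays detected, the same correlations were 0.0858, 0.327 and -0.0303. Alternatives were 4 other scalings, normexp background correction (offset 50), a filter on dim probes, outlier spots kept, the mean of all probes of a gene, the authors' values, the replicate block and leaving out each array. A fit of the GFP and LT7 arrays alone and the probe brightest on the GFP arrays were added after the data were seen.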

Additional observations from a re-analysis of the deposited data

Results flagged for a closer look

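The spike-in RNAs, which no comparison of genes used in the main scaling, stood apart on 1 array. Their mean log2 signal, over 5 probes well above background and not saturated, was 12.87 on LT7 replicate 1 and 8.47 to 8.76 on the other 5 arrays. This array was the only one read in the second scan.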

How the results depend on the processing

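The number of members called in LT7 was 0 under every alternative run, and in ST7 against GFP the count stayed between 30 (spike-in scaling) and 43. Spike-in scaling lowered the calls of ST7 against LT7 to 26 of 45 members and 49 of 78 other genes, and by the fold rule it called 4 members in LT7 (Ccnd1, Cdk2, Cdt1 and Cdc25a, all lower). Of all 49865 genes, limma with spike-in scaling called 211 higher and 10245 lower in ST7 against GFP. In ST7 against LT7 it called 699 higher and 5824 lower. With quantile normalization the calls over all genes in ST7 against GFP were 17431 higher and 10960 lower. With the 75th percentile over probes above background on all arrays they were 28797 and 12537. A steady count of members is therefore no result about them. Counts over all genes are not given for the fold rule with spike-in scaling, for leaving out 1 array or for the block. Leaving out 1 array in turn gave 0 to 1 members by the fold rule in LT7, Cdk2 lower without LT7 replicate 1 and Cdkn1b higher without LT7 replicate 2. It gave 40 to 41 members called in ST7 against GFP and 40 to 42 against LT7. With the replicate number as a block, which here is only a number, limma called 0, 40 and 41 members in the 3 comparisons and 0, 73 and 71 of the other genes.

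Of the 16 members named for LT7, 7 kept their sign under the 17 alternatives. With 1 array left out, Ccnd2 lay between -0.82 and 0.046, turning without LT7 replicate 1, and Ccnb1 between -0.20 and 0.51, turning without LT7 replicate 1 or GFP replicate 1. Spike-in scaling turned Rb1 (-1.56), Cdkn1b (-1.65), Ccnd3 (-1.87), Cdc25c (-1.89), Bub1b (-1.96), Cdk4 (-1.996), Ccnb1 (-2.06) and Mcm6 (-2.08). Of the 24 named for ST7, 10 turned somewhere. Without scaling these were E2f1 (-0.091), Cdk6 (-0.11), Pcna (-1.08), Mcm7 (-1.46), Ccne2 (-1.55), Cdc20 (-2.23), Bub1b (-2.30), Mad2l1 (-3.46) and Rbl1 (-4.08). With spike-in scaling they were Pcna (-0.89), Mcm7 (-1.27), Ccne2 (-1.36), Cdc20 (-2.04), Bub1b (-2.11), Mad2l1 (-3.27) and Rbl1 (-3.89). With the 75th percentile over probes above background on all arrays, Mad2l1 stood at -0.996 and Rbl1 at -1.62, and with normexp at -0.47 and -0.53. The mean of all probes put Rbl1 at -1.65, and with 1 array left out Ccnd2 lay between -0.18 and 0.031, turning without GFP replicate 2. The cause was not tested.

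Signals near background on the ST7 arrays give only bounds, so the size of a loss there cannot be ranked.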
